A study of Rattus norvegicus with 6 samples.

Results

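The miR-34 and miR-449 family was followed by small RNA sequencing in the capsular membrane of the lens of Sprague Dawley rat pups. The family was taken by name, as both arms of rno-miR-34a, rno-miR-34b, rno-miR-34c, rno-miR-449a, and rno-miR-449c, which gave 10 of the 910 names listed. Reads were found for 6 of the 10, and 4 of these were counted in all 6 libraries. Pups of the control group (WT libraries) were given saline, and pups of the Na2SeO3 group (Model libraries) were given sodium selenite at 20 μmol/kg, under the skin of the nape on days 3, 5, and 7. The pups were 8 days old when used for the model, and the lenses were taken on day 15 of the experiment. Each group had 3 libraries, from 3 lenses of 3 rats. The groups shared strain, age, and route of injection. The capsular membrane carries the lens epithelium, and the libraries do not separate its cells from other cells that adhere to it.

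In the miR-34 and miR-449 family, all 5p arms share 1 seed, the short stretch near the 5′ end with which a miRNA recognises its targets. Mir34a stands alone, whereas Mir34b and Mir34c are made from one transcript. The tumour suppressor p53 is known to switch on both miR-34 loci after DNA damage and other stress, and the miRNAs then lower cell cycle and survival proteins such as Cdk6, E2f3, Bcl2, and Sirt1. The miR-449 genes are known for epithelia with motile cilia, where they act with miR-34b and miR-34c in making multiciliated cells. In lens epithelium, miR-34a has been described in connection with apoptosis and senescence.

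The mature sequences are shown because the shared seed and the few differences outside it decide which names can share reads. They are the RefSeq sequences of rat, found by name for 10 of 10 members, with bases 2 to 8 (the seed) in capitals.
rno-miR-34a-5p: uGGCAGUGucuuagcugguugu
rno-miR-34b-5p: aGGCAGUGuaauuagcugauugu
rno-miR-34c-5p: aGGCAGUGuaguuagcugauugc
rno-miR-449a-5p: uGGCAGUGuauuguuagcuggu
rno-miR-449c-5p: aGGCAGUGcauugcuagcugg
rno-miR-34a-3p: aAUCAGCAaguauacugcccua
rno-miR-34b-3p: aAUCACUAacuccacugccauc
rno-miR-34c-3p: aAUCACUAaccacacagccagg
The seed GGCAGUG was found in 5 of 693 mature rat miRNAs of the RefSeq table, and all 5 were 5p arms of the family. The 3p arms of Mir34b and Mir34c share another seed, AUCACUA, which no other of the 693 mature miRNAs holds. Compared from the 5′ end without gaps, miR-34b-5p and miR-34c-5p were identical at 21 of 23 positions and differed by A11G and U23C, with the base of miR-34b-5p first. Their 3p arms differed at 5 of 22 positions. By contrast, miR-34a-5p matched miR-34c-5p at 11 of 22 positions. How the authors' counting treated mismatches is not given in the sources used here, so a division of reads between miR-34b-5p and miR-34c-5p is less certain than one between either of them and miR-34a-5p.

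The members come from 3 places in the genome. In assembly GRCr8, Mir34a (gene ID 100314015) lies at chr5:165815952-165816053 on the plus strand, inside the lncRNA LOC103692514 and between H6pd and Gpr157. Mir34b (100314188) at chr8:60306609-60306692 and Mir34c (100314014) at chr8:60306091-60306167 lie on the minus strand with 441 bases between them. Both overlap the protein-coding gene Hoatz, and Btg4 is the next protein-coding gene on one side. Mir449c (100526629, chr2:46402375-46402473) and Mir449a (100314068, chr2:46403910-46404000) lie on the plus strand within the lncRNA LOC134485839, next to Mcidas and then Ccno, both known as regulators of multiciliated cells. These positions are those of the RefSeq annotation, because the build behind the counts is not given in the sources used here.

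The counts summed to between 1806596 and 2829903 reads in the control libraries and to between 663096 and 968151 in the Na2SeO3 libraries. A name reached 3 counts, used here as the detection limit, at 1.06 to 1.66 CPM (reads per 1000000 counted) in the control group and at 3.10 to 4.52 CPM in the Na2SeO3 group. PCR copies are not marked by molecular identifiers, so intervals and limits hold counting error alone. Counted miRNAs made up 25.6% to 39.7% of the raw reads in the control libraries and less in every Na2SeO3 library, down to 11.4%. Unless said otherwise, values below are CPM after TMM scaling, which takes the bulk of miRNAs as equal between libraries. The methods give the replicates of a group as separate rats.

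The family was present at a low level in the capsular membrane of both groups. The 5 miRNAs with the seed GGCAGUG took 619 of 9221212 counted reads, or 0.00671%. Summed over those 5p arms, the level was 60.7, 66.7, and 81.5 CPM in control libraries 1 to 3 and 84.4, 62.6, and 67.0 CPM in Na2SeO3 libraries 1 to 3. The ranges overlapped, with means of 69.6 ± 10.7 CPM and 71.3 ± 11.5 CPM (SD, n = 3 each). The direction depended on the scale. Per library total, the 5p arms stood at 64.7 ± 4.37 CPM in the control group and 76.1 ± 9.90 CPM in the Na2SeO3 group, again with overlap. All 10 names together were at 69.1 ± 3.45 and 82.4 ± 8.22 CPM on that scale, with no overlap, as in 49.6% of all miRNAs tested. Per 1000000 raw reads, the 5p arms were at 19.6 ± 4.44 in the control group and 9.16 ± 0.93 in the Na2SeO3 group (SD, n = 3 each), with no overlap, as in 70.1% of all miRNAs. For comparison, miR-184, the most abundant of the lens miRNAs listed here, stood at 81388 ± 6580 CPM in the control group. Fewer cells of a type and less RNA per cell cannot be told apart in such bulk libraries.

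Of the 10 members, miR-34a-5p and miR-34c-5p had enough reads for a test, and neither passed it. Over 341 miRNAs in edgeR's quasi-likelihood test, 16.4% were DEmiRNAs (past 0.05 in adjusted p and past 1 in absolute log2 fold change), 11.4% higher and 4.99% lower in Na2SeO3, whereas 0 of the 2 members were. None of the 2 reached an unadjusted p of 0.05 in this fit either, against 44.3% of all miRNAs tested. In other edgeR fits miR-34c-5p did, with library size only (unadjusted p = 0.0353) and without control library 3 (unadjusted p = 0.0373). Its adjusted p there was 0.0842 and 0.110. miR-34a-5p did so per raw read (edgeR unadjusted p = 0.000746). DESeq2 and edgeR's exact test also called 0 of the 2. The other 8 members fell below the filter of low counts (filterByExpr, minimum count 10) and are given by their reads.

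miR-34a-5p, the member most often tied to p53, was counted 88, 67, and 48 times in control libraries 1 to 3 and 18, 30, and 21 times in Na2SeO3 libraries 1 to 3. These are 30.4, 34.6, and 31.0 CPM in the control group and 26.2, 27.2, and 23.1 CPM in the Na2SeO3 group. All 3 control libraries lay above all 3 Na2SeO3 libraries after TMM scaling, as the groups did not overlap in 46.3% of all miRNAs tested, in either direction. With library size only as the scale the groups of miR-34a-5p overlapped. The means were 32.0 ± 2.29 CPM in the control group and 25.5 ± 2.15 CPM in the Na2SeO3 group (SD, n = 3 each). The fitted log2 fold change was -0.33 ± 0.23 (standard error), with a Benjamini-Hochberg adjusted p of 0.314 in edgeR's test. The 95% interval of the fold change ran from 0.565 to 1.13. The counting interval of a single library was wide, for example 16.1 to 42.9 CPM of the library total in Na2SeO3 library 1 (exact Clopper-Pearson, 95%).

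miR-34c-5p, the main product of the Mir34b and Mir34c locus in these libraries, was counted 72, 47, and 67 times in control libraries 1 to 3 and 36, 33, and 38 times in Na2SeO3 libraries 1 to 3. Its level was 24.8, 24.3, and 43.3 CPM in the control group and 52.4, 29.9, and 41.8 CPM in the Na2SeO3 group. The groups overlapped, since control library 3 lay above Na2SeO3 libraries 2 and 3. The means were 30.8 ± 10.8 CPM in the control group and 41.4 ± 11.2 CPM in the Na2SeO3 group (SD, n = 3 each). The fitted log2 fold change was 0.42 ± 0.29 (standard error), with an edgeR adjusted p of 0.304. The 95% interval of the fold change, from 0.865 to 2.07, was wider than that of miR-34a-5p. Without control library 3 the log2 fold change was 0.73 (adjusted p = 0.110), and without Na2SeO3 library 1 it was 0.21 (adjusted p = 0.684, edgeR).

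**Figure D1:**
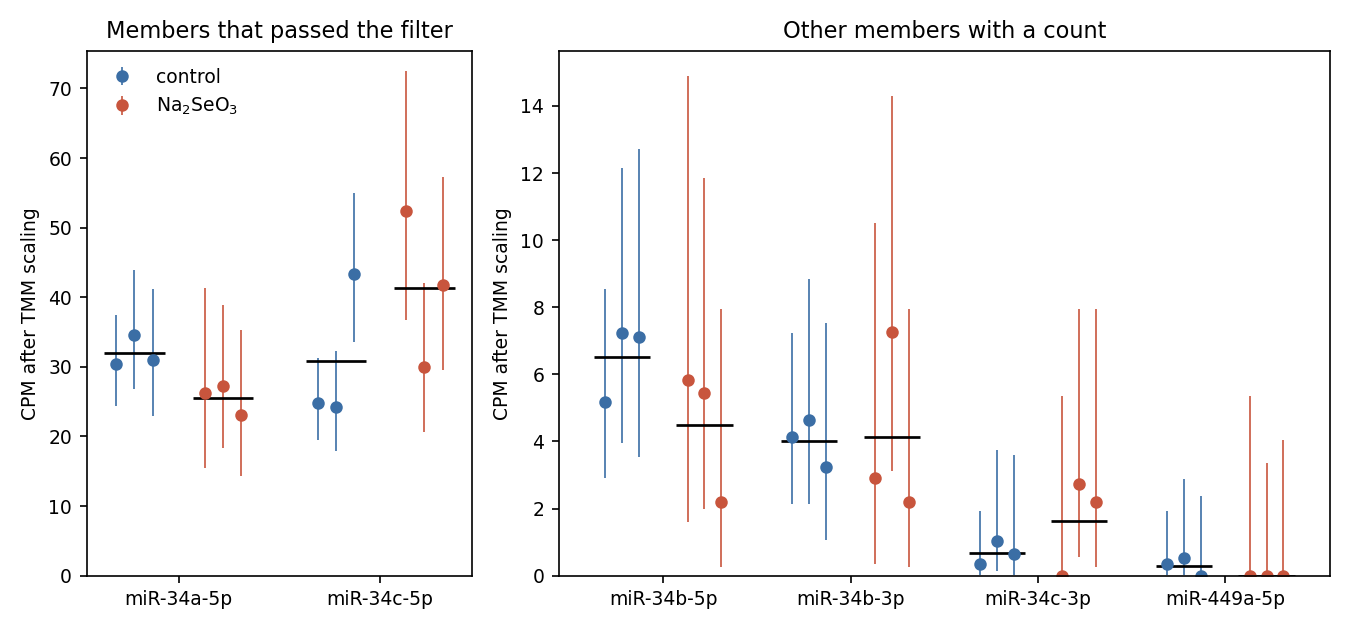
CPM after TMM scaling (vertical axis) of the 6 members with a count, by library, in the control and Na2SeO3 groups. Points are libraries 1 to 3 from left to right, bars are exact 95% counting intervals, and black lines are group means, such as 32.0 and 25.5 CPM for miR-34a-5p and 30.8 and 41.4 CPM for miR-34c-5p.

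The arms of Mir34b were rarer. miR-34b-5p was counted 15, 14, and 11 times in control libraries 1 to 3 and 4, 6, and 2 times in Na2SeO3 libraries 1 to 3, or 5.18, 7.23, and 7.11 against 5.82, 5.44, and 2.20 CPM. The groups overlapped, and Na2SeO3 library 3 was the lowest. For miR-34b-3p control libraries 1 to 3 had 12, 9, and 5 reads, and Na2SeO3 libraries 1 to 3 had 2, 8, and 2. That is 4.14, 4.65, and 3.23 CPM against 2.91, 7.26, and 2.20 CPM, and the Na2SeO3 libraries lay on both sides of the control libraries. Reads of miR-34b in Na2SeO3 libraries 1 and 3 were at or near the 3-count limit. When every name with a count was kept in the test, the log2 fold changes were -0.60 (standard error 0.59, adjusted p = 0.544) for miR-34b-5p and -0.02 (standard error 0.70, adjusted p = 0.988, edgeR) for miR-34b-3p. Each error was about as large as the change or larger.

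The 3p arm of Mir34c and both miR-449 genes were at the limit of detection. miR-34c-3p had 1, 2, and 1 reads in control libraries 1 to 3 and 0, 3, and 2 reads in Na2SeO3 libraries 1 to 3. miR-449a-5p had 1 read each in control libraries 1 and 2 and none elsewhere, and miR-449a-3p, miR-449c-5p, and miR-449c-3p had no read in any library. Together the miR-449 arms therefore had 2 reads among 6712188 in the control group. They had 0 among 2509024 in the Na2SeO3 group, which allows a level of up to 1.20 CPM for a name. Both values lie within the limit of 3 counts, and a difference in miR-449 was not detectable.

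The genes differed in how many reads came from the 3p arm. For Mir34a, 0 of 272 reads were on the 3p arm, which at the limit of 3 counts allows a share of up to 1.10% (the exact Clopper-Pearson 95% upper bound is 1.35%). For Mir34c, the 3p arm held 9 of 302 reads, or 2.98% (exact Clopper-Pearson 95% interval 1.37% to 5.58%), and between 0% and 8.33% by library. For Mir34b, it held 38 of 90 reads, or 42.2% (31.9% to 53.1%), and between 31.2% and 57.1% by library. The share of the 3p arm was higher for Mir34b than for Mir34c in 6 of 6 libraries, and the ranges of these shares did not overlap. In Na2SeO3 libraries 1 and 3, however, the Mir34b share rested on 2 of 6 and 2 of 4 reads. Their exact 95% intervals (4.33% to 77.7% and 6.76% to 93.2%) overlapped those of Mir34c (0% to 9.74% and 0.611% to 16.9%). Both shares also depend on the less certain division of reads between miR-34b-5p and miR-34c-5p. Reads from all libraries were summed for the first share of each gene, so those intervals do not hold the spread between animals.

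The order of the levels was read within each group. In the control group miR-34a-5p and miR-34c-5p (24.3 to 43.3 CPM) did not differ beyond their spread. Then came miR-34b-5p (5.18 to 7.23 CPM) and miR-34b-3p (3.23 to 4.65 CPM), whose ranges did not touch. Counting error did not separate these 2 arms, since their exact 95% intervals overlapped in every control library. In control library 1, for example, they were 2.90 to 8.54 and 2.14 to 7.23 CPM. In the Na2SeO3 group miR-34c-5p (29.9 to 52.4 CPM) lay above miR-34a-5p (23.1 to 27.2 CPM) in every library, and the ranges of both Mir34b arms overlapped. As a share of the family's reads, miR-34a-5p took 46.6%, 47.9%, and 36.4% in control libraries 1 to 3. In Na2SeO3 libraries 1 to 3 it took 18 of 60 reads, 37.5%, and 32.3%. The ranges overlapped by one library, since control library 3 lay below Na2SeO3 library 2.

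**Figure D2:**
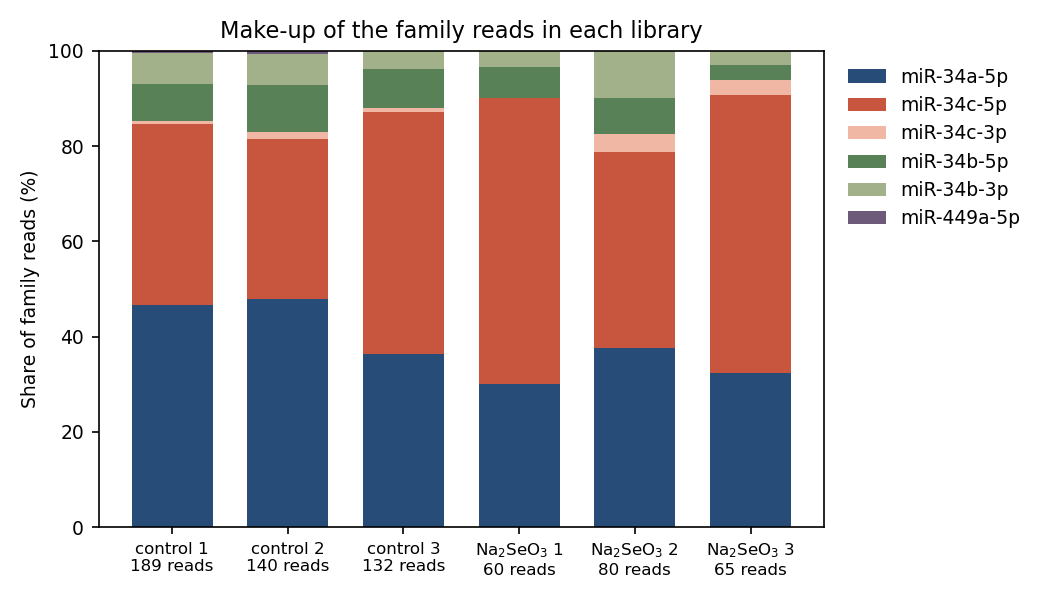
Share of the family's reads (vertical axis, percent) taken by each member in each library, with the number of reads under each bar. miR-34a-5p and miR-34c-5p make up most reads in every library, and miR-34a-5p takes at most 47.9%.

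A ratio of 2 members within a library does not depend on how the libraries are scaled. Of 5 ratios planned, 3 had reads for both members in every library and were tested by exact permutation (two-sided), where the smallest p for 3 against 3 libraries is 0.1. The ratio of miR-34c-5p to miR-34a-5p, which sets both loci against each other, was 0.819, 0.704, and 1.39 for control libraries 1 to 3 and 1.97, 1.10, and 1.79 for Na2SeO3 libraries 1 to 3. The groups overlapped, since control library 3 lay above Na2SeO3 library 2. On the log2 scale the difference between the groups was 0.76 (exact permutation test, p = 0.2, adjusted p = 0.45 over 3 ratios, n = 3 per group). The ratio of miR-34b-3p to miR-34b-5p differed by 0.51 on the log2 scale (exact permutation test, p = 0.3, adjusted p = 0.45). The ratio of miR-34c-5p to miR-34b-3p, from the same locus, differed by 0.44 (exact permutation test, p = 0.8, adjusted p = 0.8). With 3 libraries against 3, none of these tests could have reached 0.05, so their p-values cannot tell a difference from none.

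The scale of the comparison mattered for the direction of miR-34c-5p, whereas the fitted change of miR-34a-5p was negative on every scale. Per raw read of the library, in place of per counted miRNA, the log2 fold change was -1.47 for miR-34a-5p (adjusted p = 0.00200, edgeR), which then passed both thresholds, and -0.70 for miR-34c-5p (adjusted p = 0.126). On that scale 51.6% of all miRNAs tested were DEmiRNAs lower in Na2SeO3, and the median over all 341 log2 fold changes moved from 0.08 to -1.07. Relative to the median of all miRNAs, miR-34a-5p was at -0.40 on both scales, and miR-34c-5p was at 0.34 after TMM scaling and at 0.37 per raw read. With library size only as the scale the median of all miRNAs was 0.27, and the log2 fold changes were -0.13 and 0.62.

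**Figure D3:**
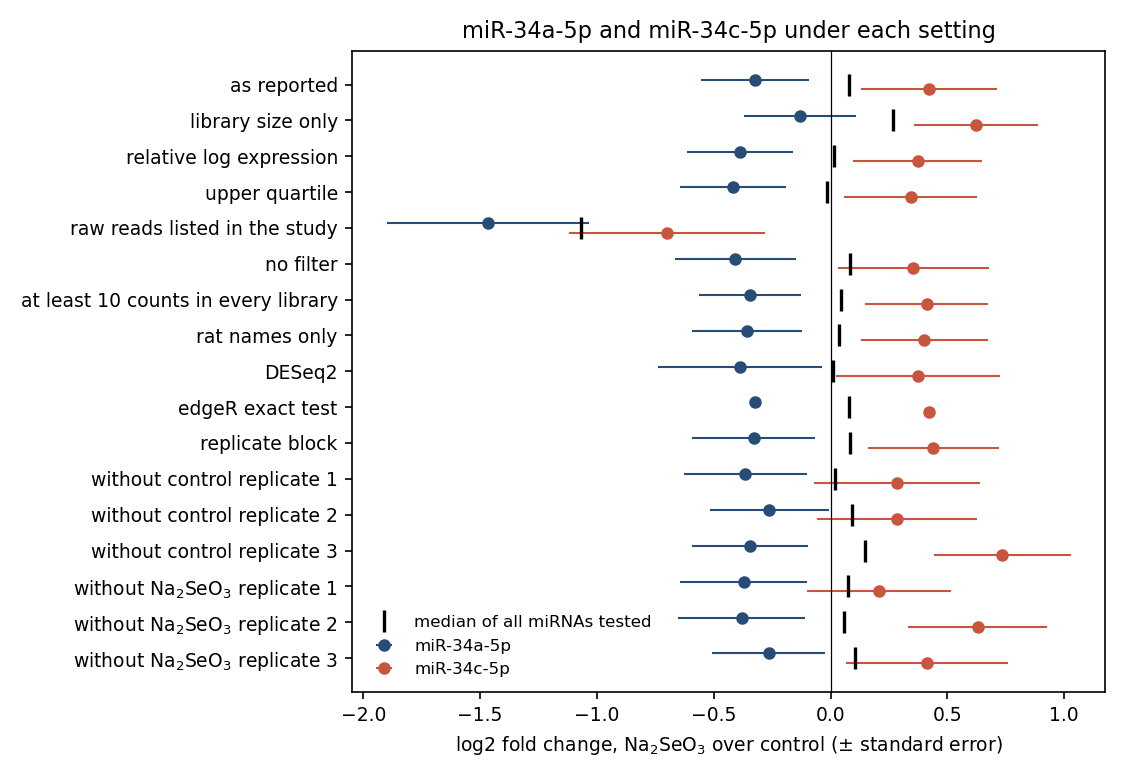
log2 fold change of miR-34a-5p and miR-34c-5p in Na2SeO3 over control (horizontal axis, bars are standard errors, none for edgeR's exact test) under each scaling, filter, test, and set of libraries, with the median of all miRNAs tested as a black tick. Per raw read all 3 values shift to the left, to -1.47, -0.70, and -1.07.

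Among the 326 rat miRNAs tested, miR-34a-5p ranked 232 and miR-34c-5p ranked 237 by mean CPM in the control group. Next to miR-34a-5p stood miR-31a-3p above it, at 32.3 ± 11.6 CPM, and miR-28-5p below it, at 32.0 ± 2.81 CPM (SD, n = 3 each). miR-31a-3p was a DEmiRNA, at -1.13 on the log2 scale (edgeR adjusted p = 0.0294), and miR-28-5p was at 0.05 (adjusted p = 0.891). The neighbours of miR-34c-5p were miR-485-5p at 31.3 ± 4.22 CPM and miR-195-3p at 30.5 ± 10.1 CPM (SD, n = 3 each). Of these, miR-485-5p rose by 0.64 on the log2 scale (edgeR adjusted p = 0.0447), short of the fold change threshold, and miR-195-3p was at -0.26 (edgeR adjusted p = 0.536). These neighbours were picked for their closeness in the control group, so their closeness there is no result. In the Na2SeO3 group miR-28-5p stood at 33.1 ± 4.07 CPM and miR-31a-3p at 14.1 ± 6.82 CPM (SD, n = 3 each), with all libraries of the first above and all of the second below those of miR-34a-5p.

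The patterns over the 6 libraries were compared by Pearson correlation of log2 CPM, given as a description because the libraries share the 2 groups and their depths. miR-34a-5p was most like miR-10b-5p (r = 0.962), miR-221-3p (r = 0.962), and miR-375-3p (r = 0.957), whose log2 fold changes were -1.20, -0.60, and -0.72. miR-34c-5p was most like miR-126a-3p (r = 0.936), known from endothelium, miR-9a-5p (r = 0.904), known from neural tissue, and miR-1839-3p (r = 0.873), with log2 fold changes of 0.24, 0.43, and 0.28. The members' own correlations with other miRNAs rest on 18 to 88 reads per library.

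Other miRNAs linked to p53 were read from 3 lists. Each list took both arms of its miRNAs, so a name counted below need not be the arm whose link to p53 is described. Of 14 tested names of miRNAs described as raised or matured with p53, 4 fell at an adjusted p-value of 0.05 and none rose. Of the 14, 0 passed the fold change threshold as well. At the same adjusted p-value 34.6% of all miRNAs tested passed, 20.8% upward and 13.8% downward. The 4 were miR-143-3p (log2 fold change -0.60, adjusted p = 0.00603), miR-145-5p (-0.85, adjusted p = 0.00153), miR-145-3p (-0.73, adjusted p = 0.0101), and miR-200c-3p (-0.78, adjusted p = 0.00506, edgeR). miR-143 and miR-145, whose maturation p53 is known to aid, come from one locus known from smooth muscle and mesenchyme, and miR-200c is known as an epithelial miRNA. The most abundant of the list, miR-143-3p, went from 32073 ± 1473 to 21200 ± 3168 CPM (SD, n = 3 each). The fall of miR-145-3p passed in 4 of 6 fits with a library left out, and the other 3 passed in 6 of 6. The median log2 fold change of the list was -0.28, beside 0.08 over all miRNAs tested. With library size only as the scale 1 rose and 3 fell, beside 96 and 30 of all 341. The 1 was miR-16-5p, named after its values were seen, at 0.62 on that scale (edgeR adjusted p = 0.0102) and at 0.42 after TMM scaling (edgeR adjusted p = 0.0680). Per raw read 13 of 14 fell, beside 208 of all 341, with 6 of the 341 higher.

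Of 8 tested names, both arms, of miRNAs described as lowering p53 or its activity, 3 rose and 1 fell at an adjusted p-value of 0.05. This stands beside 20.8% and 13.8% of all miRNAs. The 3 were miR-25-3p (log2 fold change 0.91, adjusted p = 0.00351), miR-504 (0.52, adjusted p = 0.0447), and miR-122-5p (3.52, adjusted p = 0.0135), and the fall was that of miR-30d-5p (-0.44, adjusted p = 0.0472, edgeR), the most abundant of the list at 15079 ± 1891 CPM in the control group. miR-122-5p, a liver miRNA whose effect on p53 is described in both directions, rested on 1 library. It was counted 45, 9, and 8 times in control libraries 1 to 3 and 2, 24, and 262 times in Na2SeO3 libraries 1 to 3, and without Na2SeO3 library 3 its log2 fold change was 0.55 (edgeR adjusted p = 0.674). Its rise passed in 2 of 6 fits with a library left out, and DESeq2 gave an adjusted p of 0.0698. The change of miR-25-3p held with each library left out, whereas those of miR-504 and miR-30d-5p passed in 1 of 6 such fits. The 8 names include the arms miR-125b-1-3p, miR-125b-2-3p, and miR-30d-3p. With TMM scaling and all libraries these did not pass (edgeR adjusted p = 0.0504, 0.313, and 0.507). With library size only as the scale 3 rose and none fell, and per raw read 1 rose and 5 fell, to be read against the same counts over all 341. Of the miR-17-92 cluster, which p53 is known to repress, 0 of 5 tested miRNAs passed an adjusted p-value of 0.05, beside 34.6% of all miRNAs, with log2 fold changes from -0.14 to 0.34 and miR-92a-3p the most abundant. None of these 5 reached an unadjusted p of 0.05. With library size only as the scale 1 of the 5 rose, and per raw read 3 fell, again beside 208 of all 341.

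**Figure D4:**
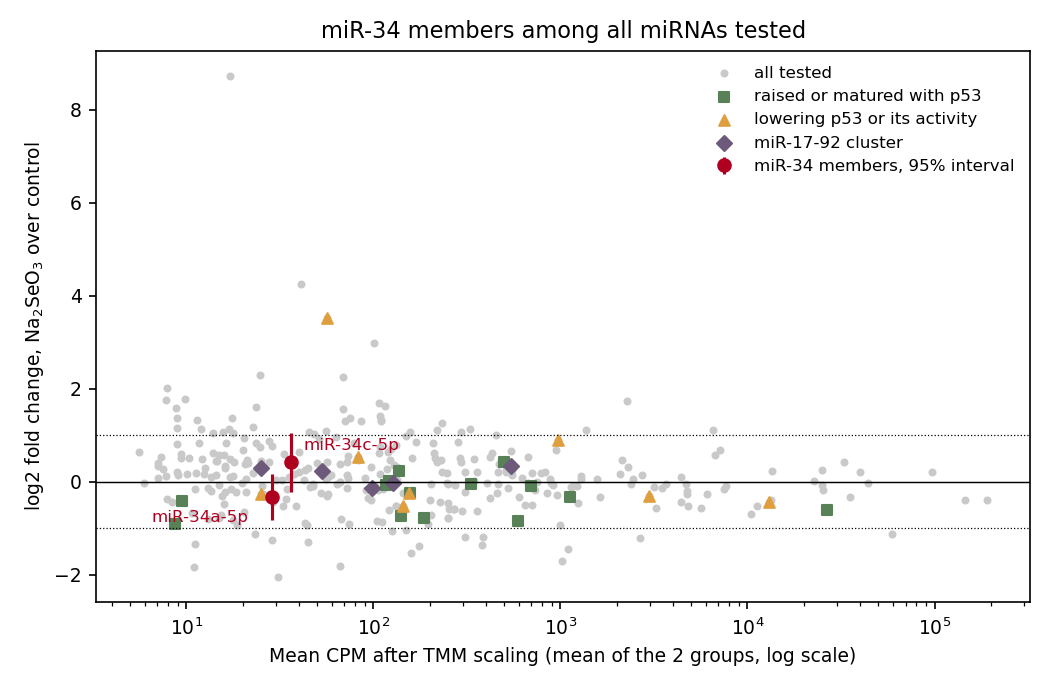
log2 fold change in Na2SeO3 over control (vertical axis) against mean CPM (horizontal axis, log scale) of all 341 miRNAs tested, with the 3 p53-linked lists in colour and the miR-34 members with 95% intervals. Dotted lines mark a log2 fold change of 1 and -1, and the points of both members lie between them, at -0.33 and 0.42.

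Markers of lens and of other tissues were read in the same libraries, where 20.8% of the 341 miRNAs rose and 13.8% fell at 0.05 in adjusted p. The lens list (miR-184, miR-204, miR-26a) summed to between 127157 and 142309 CPM in the control group and between 74174 and 86919 CPM in the Na2SeO3 group, with 2 of 4 tested names lower at that p-value. These were miR-184 and miR-26a-5p, the second at an adjusted p of 0.0478 in edgeR, and the count was 1 in 5 of 6 fits with a library left out and 3 without Na2SeO3 library 1. The surface epithelium list (miR-203, miR-205) went from between 4786 and 5178 CPM to between 2252 and 2395 CPM, with 2 of 2 lower, miR-203a-3p at -1.21 on the log2 scale (edgeR adjusted p = 4.86e-05). The muscle list (miR-1, miR-133, miR-206) went from between 6380 and 8155 CPM to between 12858 and 14202 CPM, with 4 of 5 higher, miR-206-3p the most, at 1.75 (edgeR adjusted p = 3.48e-05). The sum leaves out miR-1b, which the rule for names missed and which lay above miR-1-3p in every library. On the log2 CPM scale miR-1b was at 13.34, 13.73, and 13.66 in control libraries 1 to 3. It was at 13.68, 13.72, and 14.07 in Na2SeO3 libraries 1 to 3, with overlap. Another muscle miRNA, miR-499-5p, which is outside that list and was looked up after its values were seen, was at -0.49 on the log2 scale (edgeR adjusted p = 0.0680). Of the neural and glial list 2 of 7 were higher, miR-9a-5p and miR-219a-2-3p, and the count was 1 in 5 of 6 fits with a library left out. miR-219a-2-3p, known from oligodendrocytes, was counted 7, 13, and 5 times in control libraries 1 to 3 and 59, 81, and 69 times in Na2SeO3 libraries 1 to 3. Its log2 fold change of 4.26 had the smallest p of all 341 miRNAs (edgeR adjusted p = 2.04e-06), and it was a DEmiRNA in 6 of 6 fits with a library left out and, at 3.15, per raw read. The other members of that list did not share its direction throughout. miR-338-3p, also known from oligodendrocytes, was at 24.9 ± 4.50 CPM in the control group and 12.4 ± 6.69 CPM in the Na2SeO3 group (SD, n = 3 each). The groups did not overlap, as in 46.3% of all miRNAs tested, and its log2 value was -0.93 (edgeR adjusted p = 0.0519). The fall passed 0.05 in edgeR with upper-quartile scaling (adjusted p = 0.0282), relative-log-expression scaling (0.0345), rat names only (0.0283), and the exact test (0.0383). It did not with library size only (edgeR adjusted p = 0.128), without a filter (edgeR adjusted p = 0.143), or in DESeq2 (adjusted p = 0.0823). miR-124-3p and miR-124-5p were at -0.12 (edgeR adjusted p = 0.709) and -0.04 (edgeR adjusted p = 0.862). Of the blood list 1 of 3 was higher, miR-486, at 1.12 (edgeR adjusted p = 0.00148), and per raw read it was at -0.03. Of the vessel and mesenchyme list 3 of 6 were lower, and these 3 are the miR-143-3p, miR-145-5p, and miR-145-3p already counted among the miRNAs raised or matured with p53. The other 3 had log2 fold changes above 0 that did not pass. They were miR-126a-3p at 0.24 (edgeR adjusted p = 0.216), miR-126a-5p at 0.21 (edgeR adjusted p = 0.479), and miR-143-5p at 0.02 (edgeR adjusted p = 0.935). The names miR-1-5p, miR-133b-5p, miR-203b-5p, and miR-451-3p were at 0 in all libraries. The part of these markers in the values of the miR-34 members was not tested. Per raw read 0 of 5 of the muscle list passed in either direction, and all 4 of the lens list were lower, beside 208 of all 341.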

How the data were processed

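Small RNA libraries of 3 control and 3 Na2SeO3 rats were analysed. The authors used Cutadapt and Fqtrim for filtering, FastQC for quality, and miRDeep and HISAT2 for mapping to an Ensembl reference. The authors deposited read counts per miRNA name, without normalization. The genome build, the versions, and the rules for mismatches and shared reads are not given in the sources used here.

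Counts were used as deposited (910 names, of which 725 had a count). Names with few reads were removed with filterByExpr (minimum count 10), and libraries were scaled with TMM. Na2SeO3 was tested against control by quasi-likelihood in edgeR, without covariates and with Benjamini-Hochberg adjustment over 341 miRNAs, at the thresholds of the methods. Standard errors and 95% intervals follow from each fitted change and its F value. Ratios of members used a pseudocount of 0.5 and exact permutation tests. The procedure was tested on simulated counts. The alternatives were other scalings, filters, and tests, a replicate block, and each library left out in turn. The raw reads behind one scaling are those listed in the study. Every pair of libraries differed by far more than counting noise (chi-square over degrees of freedom at least 28.0), so none was taken as a copy.

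All rows matching the family, the 3 miRNAs most like each tested member, its neighbours in level, and the miRNAs past the test and the most abundant one of each of the 3 p53 lists were named by rule. Called miRNAs of the marker lists were named after their values were seen. The members and lists were chosen with earlier results of these data known. Sequences and positions are from RefSeq (GRCr8). Versions were edgeR 4.0.16, DESeq2 1.42.0, and limma 3.58.1 under R 4.3.3, and Python 3.11.15. The mRNA libraries are not analysed here.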

Additional observations from a re-analysis of the deposited data

Results flagged for a closer look

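The table also lists ngi-miR-34, a name from another species that the rule for the family leaves out. It was counted 4 times in Na2SeO3 library 1 and 0 times in the other 5 libraries, above the limit of 3 counts and above the control libraries. It was singled out as a name outside the comparisons with reads in 1 library, and it entered no test of the rat miRNAs named here.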

How the results depend on the processing

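No alternative other than the scale of raw reads called a member. The number of DEmiRNAs was 56 and stayed between 42 and 63 over the other scalings, filters, and tests, and between 45 and 62 with each library left out (0 members called in each). It was 118 without the fold change threshold (0 members called) and 182 per raw read (1 member called). Of the DEmiRNAs, 69.6% were up-regulated, against 84.1% with library size only, 59.3% with upper-quartile scaling, and 3.30% per raw read. The log2 fold change of miR-34a-5p was negative under all 16 alternatives, and that of miR-34c-5p was positive under 15 and was -0.70 per raw read. Leaving out each library gave -0.38 to -0.26 and 0.21 to 0.73. The adjusted p of miR-34c-5p ranged from 0.0842 to 0.684, and that of miR-34a-5p from 0.00200 to 0.693. A replicate block in the fit gave 49 DEmiRNAs and 0 members called, with log2 fold changes of -0.33 and 0.44. Deviations from the group means of libraries with one number correlated at -0.17, -0.18, and -0.26, so the numbers were not taken as pairs. A pseudocount of 1 and leaving out libraries kept the sign of each of the 3 ratios, but the size moved. With a library left out, the log2 difference ranged from 0.56 to 1.05 for miR-34c-5p over miR-34a-5p. It ranged from 0.24, without Na2SeO3 library 2, to 0.86, without Na2SeO3 library 1, for miR-34b-3p over miR-34b-5p. It ranged from 0.10, without Na2SeO3 library 3, to 1.08, without Na2SeO3 library 2, for miR-34c-5p over miR-34b-3p. At these depths 8 of 10 members had too few reads to be tested.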
